A study of Mus musculus with 10 samples.

Results

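The 10 genes described here encode the brakes and drivers of the G1 phase of the cell cycle: the CDK inhibitors *Cdkn1a*, *Cdkn1b*, *Cdkn2a*, *Cdkn2b*, *Cdkn2c* and *Cdkn2d*, the D cyclins *Ccnd1*, *Ccnd2* and *Ccnd3*, and the retinoblastoma gene *Rb1*. They were chosen by name, without a rule on their values, from the 53801 genes of the count table. Earlier results of these data were known when they were chosen. Of the 10 genes, 9 had enough counts to be tested, and *Ccnd2* did not. RNA was sequenced from 10 libraries of AtT20/D16v-F2 cells, a mouse corticotroph line from a pituitary tumour. The control group was 5 libraries of a line stably transduced with lentivirus that expressed a non-targeting shRNA, and the other group was 5 libraries of a line that stably expressed *Creb3l1*-shRNA1 from the same kind of vector. No animal, drug or time course was part of the comparison. Each group was 1 stable line with 1 hairpin, so the effect of losing *Creb3l1* and any other difference between the 2 lines cannot be told apart, and the sources used here do not say whether a line was a clone. The study's methods call the replicates of its experiments biological in general, without saying what separated the 5 libraries of a line, so the p-values measure the spread between these libraries of 1 line.

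In G1, D cyclins bind CDK4 or CDK6, and the kinases phosphorylate the retinoblastoma protein, which otherwise holds E2F factors inactive at the promoters of genes for DNA replication. Inhibitors of the INK4 family, encoded by the *Cdkn2* genes, bind CDK4 and CDK6 and keep D cyclins from them. Inhibitors of the CIP/KIP family, p21 from *Cdkn1a* and p27 from *Cdkn1b*, act on cyclin-CDK complexes more broadly, and p27 and p18 from *Cdkn2c* are known as restraints on pituitary growth in mice. Creb3l1 is an endoplasmic reticulum transcription factor of the CREB3 family that is released to the nucleus by cleavage and is known from other cells as an inducer of CDK inhibitors such as *Cdkn1a*.

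The libraries held between 17420698 and 22205107 counts on genes. TMM factors scaled them, and a normalised count below is a count after this scaling. One control library, non-targeting replicate 3, had a TMM factor of 0.953 and 4.13% of its counts on the single gene *Gm42418*, and the fold changes of the 9 tested genes and the counts of calls were also computed without it. By the chi-square per gene between libraries, it lay 63 to 71.9 from the rest of its line, which were 1.84 to 2.9 apart. *Gm42418* was among the genes summed, so this distance is not separate from the share of that gene. The distance without *Gm42418* was not computed. *Creb3l1*-shRNA1 replicate 2 also stood apart, at 5.39 to 9.1 from the rest of its line, which were 2.27 to 3.34 apart. *Creb3l1* itself was lower in every knockdown library, at 3689 ± 148 (SD, n = 5) normalised counts in the non-targeting line and 1090 ± 59.2 (SD, n = 5) in the knockdown line, a log2 fold change of -1.76. The hairpin's target in *Creb3l1* is shown here because the seed of its guide can also pair elsewhere; the capitals mark the bases that the seed would pair with if the guide starts at the complement of the last base:
*Creb3l1*-shRNA1 target: gagtcggatttccTCAACAAt
This word of 7 bases stood once each in the longest annotated transcripts of *Cdkn2d* and *Rb1* and in none of those of the other 8 genes. The longest transcripts of 24.7% of all protein-coding genes held it, and other transcripts were not searched. Marker levels are given as counts scaled to library size (CPM). The corticotroph markers *Pomc* (-0.51), *Pcsk1* (-0.46), *Tbx19* (-0.27) and *Nr3c1* (-0.15) were called lower by log2 fold change and *Neurod1* (0.62) and *Pitx1* (0.36) higher, while *Crhr1* was not called and *Avpr1b* had no count in any library. The summed level of these 8 corticotroph markers, of which *Pomc* made up most, was between 7420 and 8120 CPM in the control line and between 5460 and 5820 in the knockdown line. By quantitative PCR, the study itself found *Pomc* mRNA unchanged in its *Creb3l1* knockdown lines, unlike the fall in these counts. The summed level of 13 markers of other pituitary cells was between 10.7 and 14.0 CPM over all libraries, with 5 of the markers at 0 throughout. The summed level of 9 markers of fibroblasts and other stromal cells was between 42.4 and 61.4 CPM in the control line and between 48.9 and 88.5 in the knockdown line, with 3 at 0. *Col1a1* made up most of this sum and was called higher (0.38), while *Col1a2* and *Col3a1* were not called. *Pecam1*, at low counts, was called lower (-1.08), so these markers did not share a direction. The part of these shifts in the results below was not tested. Fewer cells of a type and less RNA per cell cannot be told apart in such bulk RNA.

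Of the 9 genes tested, 6 differed between the lines at an adjusted p under 0.01, 4 higher and 2 lower in the knockdown line. Over all 14336 genes tested, 39.3% were called, 19.9% higher and 19.4% lower, so that a call was common in this comparison. *Cdkn1a*, *Cdkn1b*, *Cdkn2c* and *Ccnd1* rose, and *Cdkn2b* and *Cdkn2d* fell. *Cdkn2a*, *Ccnd3* and *Rb1* did not pass the test. For 5 of the 9 genes the 2 lines had no overlap between their libraries, as was so for 36.0% of all genes. The sizes were mostly small, and only *Cdkn2b* changed by at least 1.5-fold and passed the test, as did 7.59% of all genes. The median log2 fold change of the 9 genes was 0.12, against -0.0025 for all genes tested. The CDK inhibitors thus did not move as 1 group, with 3 higher, 2 lower and 1 not called.

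**Figure D1:**
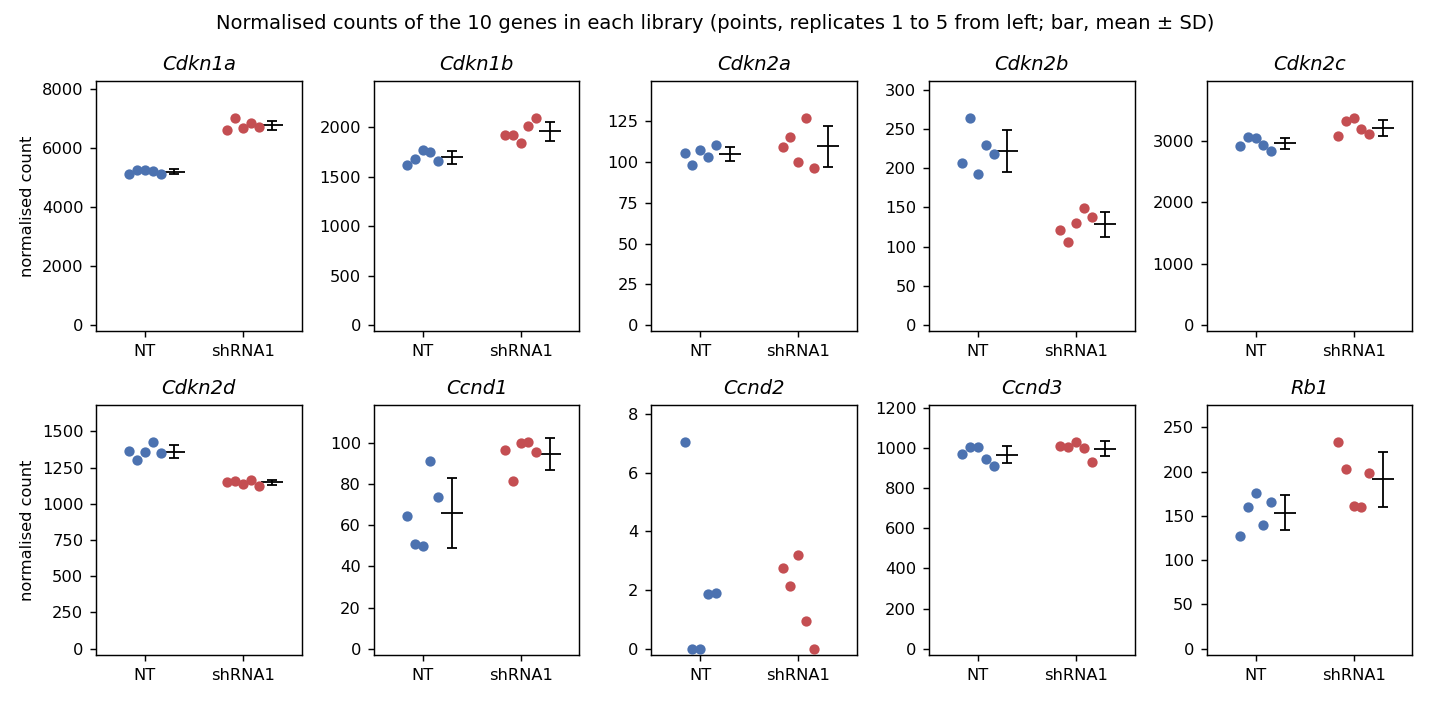
Normalised counts (vertical axes, each from 0) of the 10 genes in the non-targeting (NT, blue) and *Creb3l1*-shRNA1 (red) lines, with 1 point for each library and a bar for the mean ± SD of 5 libraries, left out for *Ccnd2*. The red points of *Cdkn1a*, *Cdkn1b* and *Cdkn2c* all lie above the blue ones, those of *Cdkn2b* and *Cdkn2d* all lie below, and *Ccnd2* stays under 8 normalised counts in every library.

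*Cdkn1a* (ENSMUSG00000023067), which encodes p21, lies on the plus strand of chromosome 17 of GRCm38 from 29090976 to 29100727. Its normalised counts were 5111, 5267, 5259, 5238 and 5123 in non-targeting replicates 1 to 5. In *Creb3l1*-shRNA1 replicates 1 to 5 they were 6600, 7010, 6680, 6834 and 6700. The lowest knockdown library was well above the highest control library, and the spread within each line was small beside the difference. The control mean was 5199 ± 76.4 (SD, n = 5) and the knockdown mean 6765 ± 161 (SD, n = 5), or 0.38 ± 0.026 (SE) as log2 fold change. The adjusted p was 1.83e-10 in edgeR's quasi-likelihood test, with the Benjamini-Hochberg adjustment made over all genes tested. *Cdkn1a* was thus 1.30-fold higher in cells with less *Creb3l1* mRNA. A gene on the opposite strand, AC167363.2, whose counts were not analysed here, shares 273 of the 3553 exon bases of *Cdkn1a*. RefSeq gives *Cdkn1a* 2 transcription starts, and the 250 bases before the upstream one are shown because they hold 2 matches to the p53 half-site, in capitals. The window is chr17:29090729-29090978, plus strand, GRCm38.p6:
*Cdkn1a* start 1: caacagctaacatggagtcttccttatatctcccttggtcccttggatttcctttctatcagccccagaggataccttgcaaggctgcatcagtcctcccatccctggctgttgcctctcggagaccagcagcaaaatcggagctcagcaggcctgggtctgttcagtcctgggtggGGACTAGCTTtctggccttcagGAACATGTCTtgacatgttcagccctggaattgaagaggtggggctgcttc
The matches start 73 and 51 bases before the start. A p53 half-site stood in 7.13% of the 32851 windows of this length in the RefSeq table, and the window of the other *Cdkn1a* start had none.

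*Cdkn1b* (ENSMUSG00000003031), which encodes p27, lies on the plus strand of chromosome 6 from 134920401 to 134925513. In the control libraries it was at 1620, 1679, 1771, 1746 and 1653 normalised counts for replicates 1 to 5. In the knockdown libraries it was at 1922, 1919, 1839, 2014 and 2088. The lines did not overlap, and the gap between the highest control and the lowest knockdown library was narrower than for *Cdkn1a*. The rise was 0.21 ± 0.036 (SE) as log2 fold change (edgeR, adjusted p = 5.9e-05), with a control mean of 1694 ± 63.5 (SD, n = 5) and a knockdown mean of 1957 ± 96.3 (SD, n = 5). The third CIP/KIP gene, *Cdkn1c* (p57), was not among the 10 genes and had a log2 fold change of 0.20 (adjusted p = 0.0517, edgeR), and it was called at 0.28 once each library was corrected for GC content and gene length (adjusted p = 0.0041).

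The INK4 genes did not share a direction. *Cdkn2b* (ENSMUSG00000073802), which encodes p15, had the largest change of the 10 genes. It lies on the minus strand of chromosome 4 from 89306299 to 89311039. Its normalised counts were 207, 264, 193, 230.1 and 218 in the control libraries, in the order of replicates 1 to 5. The knockdown libraries had 121, 105.96, 129.8, 149 and 137. The 2 lines stood apart in all libraries, although the libraries of each spread widely around their mean. The control mean was 222 ± 26.9 (SD, n = 5) and the knockdown mean 129 ± 16.2 (SD, n = 5), a log2 fold change of -0.79 ± 0.098 (SE; edgeR, adjusted p = 1.19e-06). The 250 bases before the *Cdkn2b* start (chr4:89311033-89311282, minus strand, GRCm38.p6) are shown because, of the 11 windows of these genes, this is the 1 that holds a full cAMP response element, TGACGTCA, in capitals:
*Cdkn2b* start 1: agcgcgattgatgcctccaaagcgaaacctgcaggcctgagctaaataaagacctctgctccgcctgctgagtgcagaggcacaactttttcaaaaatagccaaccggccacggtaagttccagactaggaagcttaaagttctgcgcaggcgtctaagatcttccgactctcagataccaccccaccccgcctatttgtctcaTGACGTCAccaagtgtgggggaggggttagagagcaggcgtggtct
The element starts 46 bases before the start, and 1.55% of all windows held it on either strand.

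*Cdkn2a* (ENSMUSG00000044303), next to *Cdkn2b* and on the same strand, lies from 89274471 to 89294653 on chromosome 4, with 11645 bases between the 2 genes. It gives rise to p16 and, from another first exon and reading frame, p19ARF, and counts per gene do not separate the 2 products. The control libraries had 105.6, 98.6, 107.6, 103.3 and 110.3 normalised counts. The knockdown libraries had 109.3, 116, 99.99, 127 and 96.3, both higher and lower than the control libraries. The log2 fold change was 0.061 ± 0.096 (SE), with a 95% interval from -0.14 to 0.26 (adjusted p = 0.632, edgeR). A change of a size within that interval is compatible with these counts, and the interval is not a limit of detection. Ratios of genes within a library were formed for 3 pairs, chosen after the values were seen, and are given as a description. A permutation test of these ratios was computed but is not given, because the pairs were picked from the same values. The log2 ratio of *Cdkn2b* to *Cdkn2a* was 1.07 ± 0.22 (SD, n = 5) in the control line and 0.23 ± 0.24 (SD, n = 5) in the knockdown line. The means differed by -0.85, and no control ratio was as low as the highest knockdown ratio, 0.51.

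*Cdkn2c* (ENSMUSG00000028551), which encodes p18, lies further along chromosome 4 from 109660876 to 109667189 on the minus strand. Control libraries 1 to 5 had 2910, 3054, 3051, 2939 and 2834 normalised counts. In the knockdown libraries they were 3072, 3323, 3367, 3195 and 3106. The lowest knockdown library lay just above the highest control library. The rise was the smallest of the called genes, at 0.12 ± 0.032 (SE) as log2 fold change (edgeR, adjusted p = 0.0042). It had an adjusted p of 0.011 without non-targeting replicate 1 and of 0.014 without non-targeting replicate 5 or without *Creb3l1*-shRNA1 replicate 3, and so was not called then. Of its 2 starts, the downstream one is shown because its window (chr4:109665373-109665622, minus strand, GRCm38.p6) is the 1 of the 11 with the G-box core GACGTG, the kind of word Creb3l1 is known to bind. It stands on the opposite strand, and the capitals mark its complement:
*Cdkn2c* start 2: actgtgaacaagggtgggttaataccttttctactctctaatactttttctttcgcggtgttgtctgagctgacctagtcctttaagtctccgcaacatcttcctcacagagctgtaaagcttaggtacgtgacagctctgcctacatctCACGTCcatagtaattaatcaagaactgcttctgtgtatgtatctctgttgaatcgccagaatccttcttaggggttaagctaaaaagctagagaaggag
The word starts 100 bases before the start, and 5.2% of all windows held it.

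*Cdkn2d* (ENSMUSG00000096472), which encodes p19INK4d, lies on the minus strand of chromosome 9 from 21288410 to 21291407. In the control libraries it had 1366, 1302, 1358, 1426 and 1348 normalised counts. In the knockdown libraries it had 1153, 1158, 1137, 1163 and 1122. The knockdown libraries lay close together and below all control libraries. The means were 1360.2 ± 44.4 (SD, n = 5) and 1147 ± 16.9 (SD, n = 5), a log2 fold change of -0.25 ± 0.031 (SE; edgeR, adjusted p = 1.22e-06). With offsets for the GC content and transcript length of each library it was -0.15 and still called. The log2 ratio of *Cdkn2c* to *Cdkn2d* was 1.12 ± 0.076 (SD, n = 5) in the control line and 1.49 ± 0.059 (SD, n = 5) in the knockdown line.

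**Figure D2:**
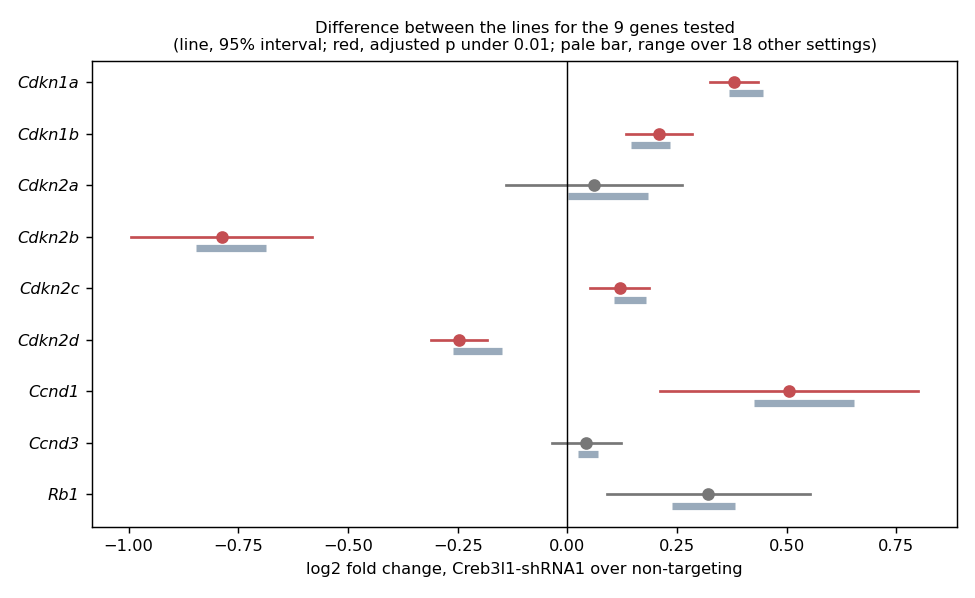
Log2 fold change of the 9 genes tested (horizontal axis, *Creb3l1*-shRNA1 over non-targeting), with its 95% interval from the edgeR fit; red marks an adjusted p under 0.01, grey the others, and the pale bars span the values from 18 other settings. *Cdkn2b* at -0.79 and *Ccnd1* at 0.50 lie farthest from 0, and no gene changes sign in any setting.

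Among the D cyclins, *Ccnd3* made up most of the mRNA. Per kilobase of exon, *Ccnd3* was 88.5% ± 2.96 (SD, n = 5) of the summed level of the 3 D cyclins in the control line and 84.8% ± 1.11 (SD, n = 5) in the knockdown line. *Ccnd1* was 11.3% ± 2.89 (SD, n = 5) and 15.0% ± 1.15 (SD, n = 5). With the longest transcript in place of all exons, *Ccnd3* was at 93.3% and 91.0%, so its place first among the 3 did not rest on the length used. The other D cyclin, *Ccnd2*, was at the limit of detection.

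*Ccnd3* (ENSMUSG00000034165) lies on the plus strand of chromosome 17 from 47505051 to 47599691. The values were 971, 1003, 1006, 946 and 908 normalised counts in the control libraries and 1008, 1004, 1029.7, 1001 and 932 in the knockdown libraries. The 2 lines overlapped. The log2 fold change was 0.043 ± 0.038 (SE), with a 95% interval from -0.036 to 0.12 (adjusted p = 0.368, edgeR). Of its exon bases, 361 of 8775 are also exon of *Bysl* on the other strand.

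*Ccnd1* (ENSMUSG00000070348) lies on the minus strand of chromosome 7 from 144929931 to 144939925. The cyclin it encodes is the D cyclin best known as a target of growth factor signals. Control libraries 1 to 5 gave 64.4, 50.9, 50.1, 91.1 and 73.5 normalised counts. The knockdown libraries gave 96.5, 81.3, 99.99, 100.4 and 95.4. Non-targeting replicate 4, at 91.1, lay above *Creb3l1*-shRNA1 replicate 2, at 81.3, so that the lines overlapped by this pair. Its log2 fold change of 0.50 ± 0.14 (SE) passed the test (edgeR, adjusted p = 0.00531). When 1 library was omitted the call was lost in 7 of 10 cases, among them those without non-targeting replicate 3 (adjusted p = 0.018) and without *Creb3l1*-shRNA1 replicate 1 (adjusted p = 0.011), and it remained without non-targeting replicate 4 or 5 and without *Creb3l1*-shRNA1 replicate 2. Of its 4709 exon bases, 1100 are shared with *LTO1* on the opposite strand, whose own log2 fold change was 0.25 (adjusted p = 6.44e-05, edgeR). The kit kept the strand, but the sources used here do not say whether the counting did, so reads of the 2 genes may not be told apart. The log2 ratio of *Ccnd1* to *Ccnd3* was -3.91 ± 0.42 (SD, n = 5) in the control line and -3.40 ± 0.13 (SD, n = 5) in the knockdown line, means that lay 0.51 apart.

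*Ccnd2* (ENSMUSG00000000184, chromosome 6 from 127125162 to 127152193, minus strand) had raw counts of 7, 0, 0, 2 and 2 in the control libraries. In the knockdown libraries they were 3, 2, 3, 1 and 0. The 2 sums were 11 and 9 counts over 5 libraries each, and no fold change is given. A count of 0 in non-targeting replicate 3 allows up to 3 counts, and this limit covers counting error only. *Cdk6*, one of the kinases that D cyclins bind, was likewise near the limit, with 23 and 33 raw counts over the 2 lines. *Cdk4*, the other, was abundant, at 8450 ± 180.1 (SD, n = 5) normalised counts in the control line and 8776 ± 128 (SD, n = 5) in the knockdown line (log2 fold change 0.055, adjusted p = 0.0602, edgeR), and with the offsets for GC content and length it was called at 0.12 (adjusted p = 4.6e-05).

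*Rb1* (ENSMUSG00000022105), the pocket protein gene that the D cyclin kinases act through, lies on the minus strand of chromosome 14 from 73183673 to 73325822. Its normalised counts were 127, 160.01, 176, 139.9 and 166 in the control libraries. They were 233, 203, 161, 160.1 and 198 in the knockdown libraries. Knockdown replicates 3 and 4 lay among the control libraries and the other 3 above them. The log2 fold change of 0.32 ± 0.11 (SE) did not pass the threshold (adjusted p = 0.0201, edgeR). It passed without a filter on low counts (adjusted p = 0.0052) and without *Creb3l1*-shRNA1 replicate 3 (adjusted p = 0.009) or 4 (adjusted p = 0.0085). Exons of *Rcbtb2* and *Lpar6* on the opposite strand share 488 and 408 of its 6015 exon bases, and *Lpar6* had no count in any library. Of the related pocket protein genes, *Rbl1* (p107) rose, with a log2 fold change of 0.30 (edgeR, adjusted p = 1.04e-05), and *Rbl2* (p130) had a log2 fold change of -0.044 (adjusted p = 0.592).

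Levels can be set side by side only per length, here as normalised counts per kilobase of annotated exon. In the control line *Cdkn1a* was highest, at 1460 ± 21.5 (SD, n = 5), followed by *Cdkn2c* at 1100 ± 35.3 and *Cdkn2d* at 864 ± 28.2. *Cdkn1b* came next at 372 ± 13.9, then *Cdkn2b* at 160 ± 19.3, *Ccnd3* at 110 ± 4.68 and *Cdkn2a* at 89.7 ± 3.81. *Rb1* was at 25.6 ± 3.33, *Ccnd1* at 14.0 ± 3.63 and *Ccnd2* at 0.23 ± 0.31. No 2 neighbours in this order overlapped in their libraries in the control line. In the knockdown line *Cdkn2b* had dropped to 92.5 ± 11.6, and its libraries overlapped those of *Cdkn2a*, at 93.6 ± 10.5, and of *Ccnd3*, at 113 ± 4.23. The 4 inhibitors *Cdkn1a*, *Cdkn2c*, *Cdkn2d* and *Cdkn1b* kept ranks 1 to 4 in both lines and with either length. With the longest transcript, *Ccnd3* was at 251 in the control line and stood above *Cdkn2b*.

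**Figure D3:**
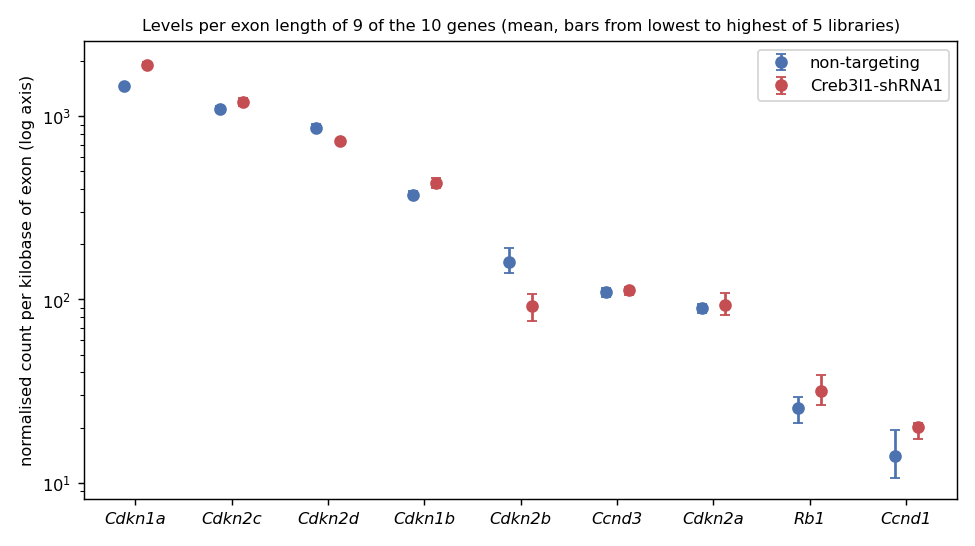
Normalised count per kilobase of exon (log axis) of 9 of the 10 genes in the non-targeting (blue) and *Creb3l1*-shRNA1 (red) lines; points are means of 5 libraries and bars run from the lowest to the highest library. *Cdkn1a* is highest in both lines, at 1460 and 1900, and *Cdkn2b* falls from 160 to 92.5; *Ccnd2*, with counts of 0 in 3 libraries, is left out.

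For the 5 called genes with at least 100 normalised counts on average, the genes most like each were sought by Pearson's r of log2 counts over the 10 libraries, among 11000 genes. *Cdkn1a* was most like *Dusp5* (r = 0.998), *Dmpk* (0.997) and *Ddx41* (0.996). *Cdkn1b* was most like *Ssr1* (0.969), *Tmem181a* (0.968) and *Iapp* (0.965). *Cdkn2b* was most like *Hpse* (0.984), *Smug1* (0.983) and *Tec* (0.980). *Cdkn2c* was most like *Emc10* (0.977), *Mon1a* (0.975) and *Sidt2* (0.961), and *Cdkn2d* was most like *Gapdh* (0.990), *Rnf4* (0.989) and *Resp18* (0.988). These values describe 10 libraries in 2 lines and mostly carry the step between the lines.

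The other genes of the pathway were taken as lists, chosen with earlier results of these data known, and are described by counts against the 39.3% of all genes called. Of 15 tested genes for G1 kinases, E and A cyclins, pocket proteins and their partners, 6 were called (40.0%), 4 higher and 2 lower. *Ccne1*, the cyclin that acts with CDK2 after the D cyclins, rose most, by 0.50 on the log2 scale, with means of 1245 ± 47.5 (SD, n = 5) and 1768 ± 69.9 (SD, n = 5) normalised counts (edgeR, adjusted p = 1.82e-10). *Cdc25a*, a phosphatase that activates CDK2, rose by 0.24 and *Cdk2* itself by 0.12, while the CDK-binding subunits *Cks1b* and *Cks2* had log2 fold changes of -0.36 and -0.20. *Ccne2* (0.19, adjusted p = 0.0188) and *Ccna2* (-0.075, adjusted p = 0.031, edgeR) did not pass the threshold. The call of *Cdk2* was lost without non-targeting replicate 1, 3 or 5 or *Creb3l1*-shRNA1 replicate 4 or 5 (adjusted p up to 0.013, edgeR). *Ccne2* did pass with library totals, with no filter, with the offsets for GC content and length (0.10), without non-targeting replicate 3 (0.22) and without *Creb3l1*-shRNA1 replicate 2 (0.26), and *Ccna2* passed with those offsets (adjusted p = 0.0088, edgeR). With the offsets for GC content and length, applied to the lists after the data were seen, 10 of these genes were called. *Cks2* was not called then (adjusted p = 0.011, edgeR).

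Of the 10 E2F and DP genes, 8 were called (80.0%), 3 higher and 5 lower. The activators *E2f2* and *E2f3* rose by 0.28 and 0.47, and the repressor *E2f7* rose by 0.65, while its close relative *E2f8* had a log2 fold change of -0.18. *E2f5* (-0.25), *Tfdp2* (-0.24) and *E2f6* (-0.18) also fell, and the call of *E2f5* was lost with the offsets for GC content and length and in 7 of the 10 fits without a library (adjusted p up to 0.02, edgeR), each of replicates 2, 3 and 4 of the control line and 1, 3, 4 and 5 of the knockdown line. *E2f1* had a log2 fold change of -0.051 (adjusted p = 0.141, edgeR). Among 27 E2F target genes of S phase, 11 were called (40.7%), 5 higher and 6 lower, with a median of -0.0093. *Tk1* (-0.40), *Uhrf1* (-0.33) and *Gins2* (-0.22) fell, and *Rfc3* (0.16), *Slbp* (0.13), *Mcm6* (0.13) and *Cdt1* (0.12) rose. The call of *Cdt1* was lost without non-targeting replicate 3, 4 or 5 or *Creb3l1*-shRNA1 replicate 2 or 3 (adjusted p up to 0.018, edgeR). The replication genes thus moved little and in both directions, close to the background share. *Mki67*, a proliferation marker, had a log2 fold change of -0.15 (adjusted p = 0.279, edgeR), and its count in *Creb3l1*-shRNA1 replicate 2 was 12404, against 22630 to 24840 in the other libraries of the line. Without that library the log2 fold change of *Mki67* was -0.0066, and with all libraries and no filter on low counts it passed the test (adjusted p = 0.00049, edgeR).

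Of 22 genes for the turnover of D cyclins and CDK inhibitors, 8 were called (36.4%), 6 higher and 2 lower. *Ambra1*, which directs D cyclins to degradation, rose by 0.25, *Skp2*, which directs p27 to it, by 0.20, and *Dtl*, which does so for p21, by 0.16. *Cryab*, which takes part in the ubiquitination of cyclin D1, rose by 0.27. *Usp2*, a deubiquitinase of cyclin D1, and *Dyrk1a*, a kinase that marks it for degradation, had log2 fold changes of -0.34 and -0.14. *Skp2* and *Dtl* were not called with the offsets for GC content and length, under which they were at 0.096 and 0.079.

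Of 31 tested regulators of the transcription of these genes, 20 were called (64.5%), 14 higher and 6 lower. *Smad3*, a mediator of TGF-beta signals that are known to induce *Cdkn2b*, fell, with 219.7 ± 18.8 (SD, n = 5) normalised counts in the control line, 95.6 ± 14.9 (SD, n = 5) in the knockdown line and a log2 fold change of -1.21, while *Smad2* and *Smad4* of the same pathway rose by 0.33 and 0.16. *Ets1* (0.85), *Mycn* (0.61), the Polycomb gene *Bmi1* (0.53) and *Kmt2a* (0.44) rose, and *Klf6* (-0.42), *Ets2* (-0.28) and *Foxo1* (-0.15) fell. Products of *Bmi1* are known to repress the *Cdkn2a* locus, whose own count did not pass the test here. *Men1*, which encodes menin, a known activator of *Cdkn1b* and *Cdkn2c*, had a log2 fold change of 0.014 (adjusted p = 0.686, edgeR), and *Myc* was low, at 56.5 ± 5.78 (SD, n = 5) and 51.7 ± 11.0 (SD, n = 5) normalised counts (adjusted p = 0.485, edgeR). *Trp73*, named after its value was seen, had the largest increase of the list at 1.78, with means of 23.3 ± 5.26 (SD, n = 5) and 81.1 ± 8.33 (SD, n = 5) normalised counts.

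*Trp53* itself had a log2 fold change of 0.029 (adjusted p = 0.417, edgeR), and *Mdm2* rose by 0.11. Of 18 tested p53 target genes other than *Cdkn1a*, 10 were called (55.6%), 9 higher and 1 lower, with a median of 0.098. *Gadd45a*, a growth arrest gene, rose most, by 1.51, followed by *Eda2r* (0.82), *Trp53inp1* (0.33) and *Ccng1* (0.30), and *Rps27l* had a log2 fold change of -0.19. These counts describe the lists, and no test of a list was made.

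**Figure D4:**
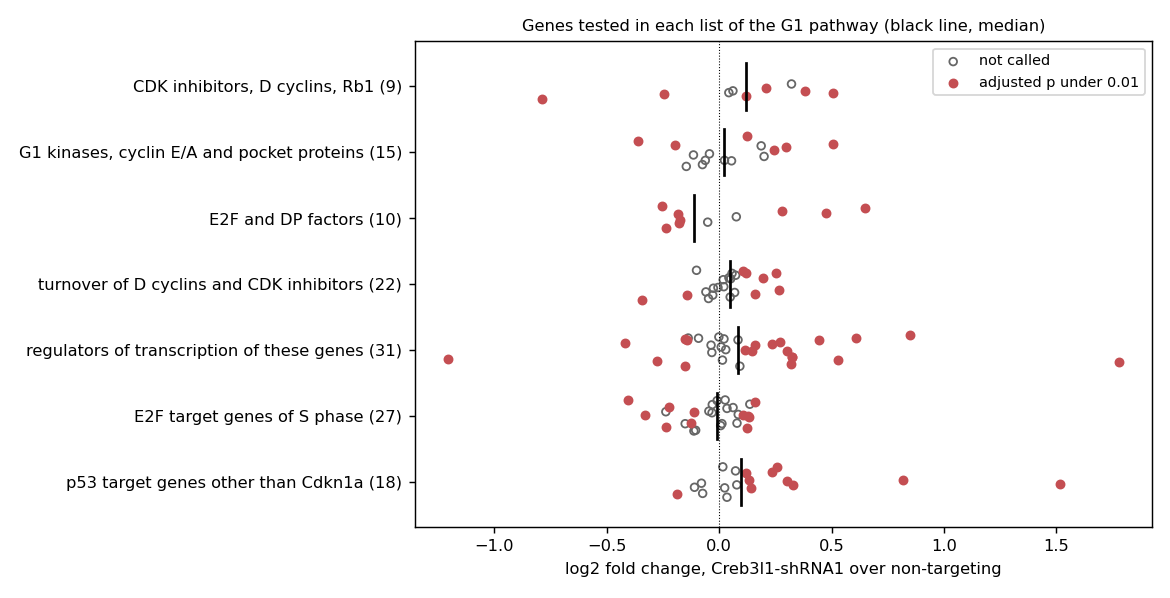
Log2 fold change (horizontal axis) of the tested genes of each list, with the number tested in parentheses; filled red points had an adjusted p under 0.01, open points did not, and the black line is the median. The replication genes lie close to 0, with a median of -0.0093, and the p53 targets have *Gadd45a* at 1.51.

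Promoter sequence was at hand for 7 of the 10 genes, in 11 windows of 250 bases, each ending just before a RefSeq start of GRCm38.p6. The others were *Ccnd1*, *Ccnd2* and *Rb1*. Besides the matches shown above, *Cdkn2d* held 1 p53 half-site, the upstream *Cdkn2a* start held the E2F word TTTCCCGC (0.895% of all windows), and the downstream *Ccnd3* start held the half-site TGACGT of the cAMP response element (6.47% of all windows, counting those within a full element). The *Cdkn2d* match and both *Cdkn2c* windows lie inside the annotated gene, because these genes are annotated from further upstream than the RefSeq starts. The palindrome CACGTG (6.02%) and the E2F word TTTGGCGC (0.417%) were in none of the 11. The words were sought on both strands, and a full cAMP response element contains 2 overlapping half-sites. *Cdkn2b*, with a full element, fell, and *Ccnd3*, with a half-site only, did not pass the test. *Cdkn1a*, with 2 p53 half-sites, rose, and *Cdkn2d*, with 1, fell. These sites are unlike, and a link between the words and the changes was not tested.

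**Figure D5:**
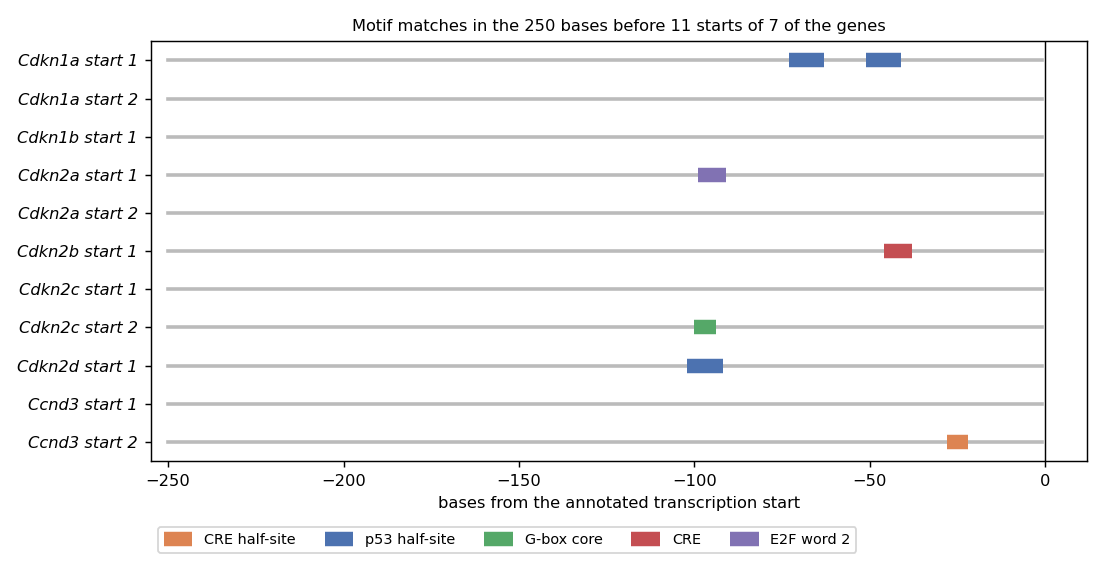
Motif matches (coloured blocks) in the 250 bases before each of 11 transcription starts (grey lines) of 7 of the genes, by distance from the start in bases. *Cdkn2b* has a cAMP response element from -46 to -39, *Cdkn1a* start 1 has p53 half-sites from -73 and from -51, and *Cdkn2c* start 2 has the G-box core from -100 to -95.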

How the data were processed

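Poly(A) RNA of 10 libraries, 5 of each stable AtT20 line, had been sequenced in pairs of short reads with a strand-keeping kit. The deposited values were raw counts per gene, which the authors made by trimming, STAR alignment to GRCm38.p6 and featureCounts on an Ensembl annotation, and the strand setting of the counting is not given in the sources used here. Library totals ranged from 17420698 to 22205107. The study's own tool was DESeq2. Groups came from the labels.

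Counts were tested on the whole table with edgeR 4.0.16 in R 4.3.3 (TMM scaling, filterByExpr, glmQLFit and glmQLFTest, no robust prior), and p-values were adjusted by Benjamini and Hochberg over the 14336 genes that passed the filter. A gene was called at an adjusted p under 0.01, the study's threshold. The residual biological variation was 5.37%. Standard errors and 95% intervals came from the fit. Of 53801 genes, 27035 had no count, and 53620 had a symbol in the GENCODE annotation of GRCm38, an earlier release than the authors', which gave symbols, positions and exon lengths. Promoters came from RefSeq (GRCm38.p6). The test was checked on simulated counts, with 50 genes changed at each size. It recovered 17 of them at a log2 change of 0.2, 33 at 0.4, 44 at 0.8 and 48 at 1.6. Of 14136 unchanged genes, 3 were called. Small changes can thus be missed. Far fewer genes were changed in the simulation than the 5628 called in the data, which makes the adjustment of p stricter there. The recovery and false calls of the simulation therefore do not carry over to this comparison as rates.

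The genes and all lists were chosen with earlier results of these data known. Named were the 10 genes, *Creb3l1*, up to 4 called genes in each direction per list with the largest change among those averaging 100 normalised counts or more, 16 core genes whatever their values, and the 3 genes most correlated with each called gene. One gene that this rule names is not reported here. Alternatives were DESeq2 1.42.0, RLE size factors, library totals, no filter, at least 10 counts in every library, a replicate block, offsets for GC content and length (splines with 5 degrees of freedom), other thresholds, the longest transcript as length, and leaving out each library. A robust prior was added after the data were seen, as was the use of the GC and length offsets on the counts of calls per list.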

Additional observations from a re-analysis of the deposited data

Results flagged for a closer look

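In 126 groups of 5 values examined for a library standing apart from the other 4 (Dixon's test at 95%), 11 did so, and chance would give about 6.3. Among the G1 genes, *Ccnd1* was low in *Creb3l1*-shRNA1 replicate 2, at 81.3 normalised counts, where the rest of the line had 95.4 to 100.4, and *Ccnd3* was low in *Creb3l1*-shRNA1 replicate 5, at 931.5 against 1002 to 1030. *Mki67* was low in *Creb3l1*-shRNA1 replicate 2, at 12400 against 22630 to 24840. In the same line, *Cryab* was high in replicate 2 (557.6 against 473.4 to 492.7), *E2f8* in replicate 3 (1440 against 1307 to 1335) and *Mycn* in replicate 5 (457.1 against 415.3 to 421.2), while *Kmt2a* was low in replicate 4 (6996 against 7787 to 8071). *Eda2r* was low in non-targeting replicate 1, at 110.6 against 137.1 to 147.3. Of the measures of whole libraries, the TMM factor was 0.953 in non-targeting replicate 3 against 1.005 to 1.007 in the rest of the line, and 0.9997 in *Creb3l1*-shRNA1 replicate 1 against 1.005 to 1.006. *Gm42418* took 4.129% of the counts of non-targeting replicate 3 and 0.1071% to 0.1294% in the other control libraries. The causes were not tested.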

How the results depend on the processing

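The 9 tested genes kept their direction in all alternatives run. The number of all genes called, 5628, was 5542 with DESeq2, 5412 with library totals, 6027 without a filter, 5933 with the GC and length offsets and 5837 with the robust prior, the last chosen after seeing the data. It was 1088 when at least 1.5-fold was asked for, with 1 of the 9 genes left, and between 5144 and 5815 when a library was left out, with 4 to 6 of the 9 (4 without non-targeting replicate 1, where *Cdkn2c* and *Ccnd1* were lost). With a replicate block 5680 genes and 6 of the 9 were called, and the block changed no call among the 9. The labels do not say whether same-numbered libraries were handled together. The correlations of their deviations lay between -0.13 and 0.13, which cannot decide this. With the longest transcript the control levels per kilobase were 2500 for *Cdkn1a*, 117 for *Cdkn2a*, 1200 for *Cdkn2c*, 956 for *Cdkn2d*, 251 for *Ccnd3* and 33.0 for *Rb1*. With the GC and length offsets, applied to the lists after the data were seen, 10 genes of the G1 kinase list were called, against 6. The same offsets turned *E2f1* to 0.000656. With a library left out, 5 to 7 of the G1 kinase list, 7 to 8 of the E2F list, 6 to 9 of the turnover list, 19 to 20 of the regulators, 9 to 13 of the S-phase targets and 9 to 10 of the p53 targets were called. The causes were not tested. Counts of about 100 or fewer, as for *Ccnd1* and *Cdkn2a*, limit precision, and at the counts of *Ccnd2* no difference could be detected.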
